A study of Mus musculus with 4 samples.

Results

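The genes described here are the mouse histone genes with symbols of the older form Hist1h to Hist4h, which encode the replication-dependent histones. They were found by matching the gene identifiers of the deposited count table to gene symbols and keeping every symbol that begins with Hist, a digit from 1 to 4 and h. The rule gave 68 genes of 47937 in the table, and 2 further symbols of the annotation, Hist1h2bh and Hist1h2bm, had no matching entry. By class there were 6 genes for the linker histone H1, 20 for H2A, 17 for H2B, 12 for H3 and 13 for H4. By symbol 54 belonged to the Hist1 cluster on chromosome 13, 10 to Hist2 on chromosome 3, 3 to Hist3 on chromosome 11 and 1 to Hist4 on chromosome 6. The pseudogene Hist1h2al is counted in Hist1 by its symbol, but it lies at chr13:51202727-51203065, far from the other Hist1 genes. The annotation gave 65 of them as protein-coding and 3 as pseudogenes, and all annotated transcripts of 63 had a single exon.

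The libraries were total RNA of mouse embryonic fibroblasts (MEFs), connective tissue cells grown from mouse embryos, here labelled as a cell line. The untreated group was wild-type MEFs given no genistein and had 2 libraries. The genistein group was MEFs given 50 µM genistein, a plant isoflavone, for 24 h, and also had 2 libraries. For the genistein libraries the genotype label repeats the treatment, and no time or vehicle is labelled for the untreated libraries. In other assays the paper describes untreated cells as given DMSO alone. The labels do not say whether the libraries of a group came from separate cultures, so the p-values measure the spread between these libraries, which may be technical.

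Replication-dependent histone genes supply the proteins that package newly made DNA, and cells transcribe them mainly in S phase. Their mRNAs have no introns as a rule and end in a short stem-loop in place of a poly(A) tail. The stem-loop is bound by SLBP, which acts in processing, export, translation and decay of the mRNA. A library made from ribosome-depleted total RNA, as here, does not require a poly(A) tail. An octamer of H2A, H2B, H3 and H4 forms the nucleosome core, and H1 binds the linker DNA.

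The stem-loop sites of members from each class are shown because this element is what the mRNAs have in common at their ends. The sequences are GENCODE transcripts on GRCm38, read 5′ to 3′ in DNA letters, and each lies after the stop codon in the exon of its gene. The annotated transcripts run on past the printed stem-loops, from 11 bases in Hist1h2ab to 1643 in Hist3h2a, so not every site is at the annotated end. Capitals mark the 16 bases of the stem-loop, searched on the transcript strand as GG, any 2 bases, CTTTT, any base, AG, any 2 bases and CC.
Hist1h1c (H1, chr13:23739506-23739533, plus strand): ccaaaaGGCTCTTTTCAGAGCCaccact
Hist1h2ab (H2A, chr13:23751566-23751593, plus strand): aacaaaGGCTCTTTTCAGAGCCacccac
Hist2h2ac (H2A, chr3:96220412-96220439, minus strand): caaaaaGGCTCTTTTTAGAGCCaccaaa
Hist3h2a (H2A, chr11:58955166-58955193, plus strand): accaaaGGCTCTTTTCAGAGCCacccac
Hist1h2bk (H2B, chr13:22036294-22036321, plus strand): accaaaGGCTCTTTTAAGAGCCactaaa
Hist1h3b (H3, chr13:23752814-23752841, plus strand): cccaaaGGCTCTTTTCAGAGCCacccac
Hist1h4c (H4, chr13:23698083-23698110, minus strand): acaaaaGGCCCTTTTCAGGGCCacccac
Hist1h4j (H4, chr13:21735431-21735458, plus strand): cctaaaGGTCCTTTTCAGGACCaccaca
Hist2h4 (H4, chr3:96262933-96262960, minus strand): cctaacGGCCCTTTTTAGGGCCaaccac
The motif was found in 42 members, and in 40 of the 46 coding members whose annotation runs at least 60 bases past the stop codon. Across the annotation, 89 of 55450 genes (0.161%) held it anywhere in a transcript. The form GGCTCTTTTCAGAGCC was the most common, in 24 members. All 11 sites found in H4 genes began with GGCCC or GGTCC, and all 31 in the other classes began with GGCTC.

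Histone mRNA was far lower in both genistein libraries. Summed over the 68 genes, untreated cells had 345765 and 348996 normalised counts, and cells given genistein had 51252 and 55402. Normalised counts are raw counts scaled to a common effective library size. The summed level fell 6.51-fold, to 15.4% of the untreated mean. As a share of all counts, histone genes made up 1.13% (95% Wilson interval 1.122 to 1.129) and 1.14% (1.136 to 1.144) of the untreated libraries. In the genistein libraries they made up 0.174% (0.172 to 0.175) and 0.191% (0.190 to 0.193). These intervals cover counting error only. In bulk RNA, fewer cells in S phase and less histone mRNA per cell cannot be told apart.

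The low-count filter kept 64 of the 68 genes, each with at least 18 raw counts in every library. In edgeR's quasi-likelihood test, 61 were lower with genistein past all thresholds, which required an adjusted p under 0.05, a change of more than 1 on the log2 scale and more than 100 normalised counts on average. None was higher. Over all 17358 genes and repeats tested, 3.92% were lower and 3.91% higher past the same thresholds. By adjusted p alone 63 were lower and 0 higher, beside 36.0% and 36.2% of all entries tested. Both genistein libraries lay below both untreated libraries for all 64, as for 42.0% of all entries. The median log2 fold change of the 64 was -2.71, from -4.63 to -0.49, while the median over all entries was 0.02. The 4 genes removed by the filter were Hist1h1t, Hist1h2aa and Hist1h2ba, with 0 to 4 raw counts in any library, and the pseudogene Hist1h2aj, with 8, 10, 5 and 5.

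**Figure D1:**
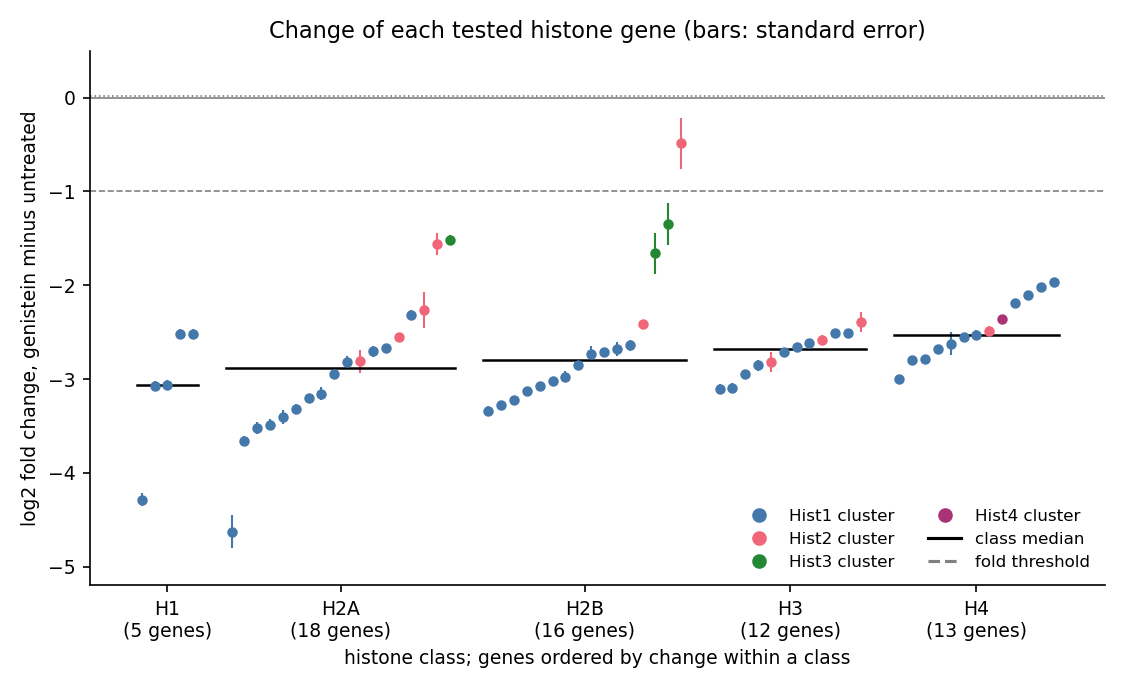
Each point is 1 of the 64 tested histone genes, with its log2 fold change (genistein minus untreated) on the vertical axis and its standard error as a bar, grouped by class and coloured by cluster. Black lines are class medians, the dashed line is the fold threshold, the solid grey line is 0 and the dotted line is the median of all entries tested. All but Hist2h2be, at -0.49, lie below the threshold.

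The class sums fell in all 5 classes. H1 counts summed to 62546 and 62502 in untreated cells and to 8369 and 9327 with genistein, 7.07-fold lower. H2A sums were 46143 and 46845 against 5998 and 6339, 7.54-fold lower. H2B sums were 78740 and 79119 against 10028 and 10945, 7.53-fold lower. The core class H3, with 66839 and 67713 against 9574 and 10537, was 6.69-fold lower. H4, the class with the highest sum in all libraries, went from 91498 and 92817 to 17284 and 18254, which was 5.19-fold lower. No class had overlapping groups, and the libraries of a group lay far closer to each other than to the other group.

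**Figure D2:**
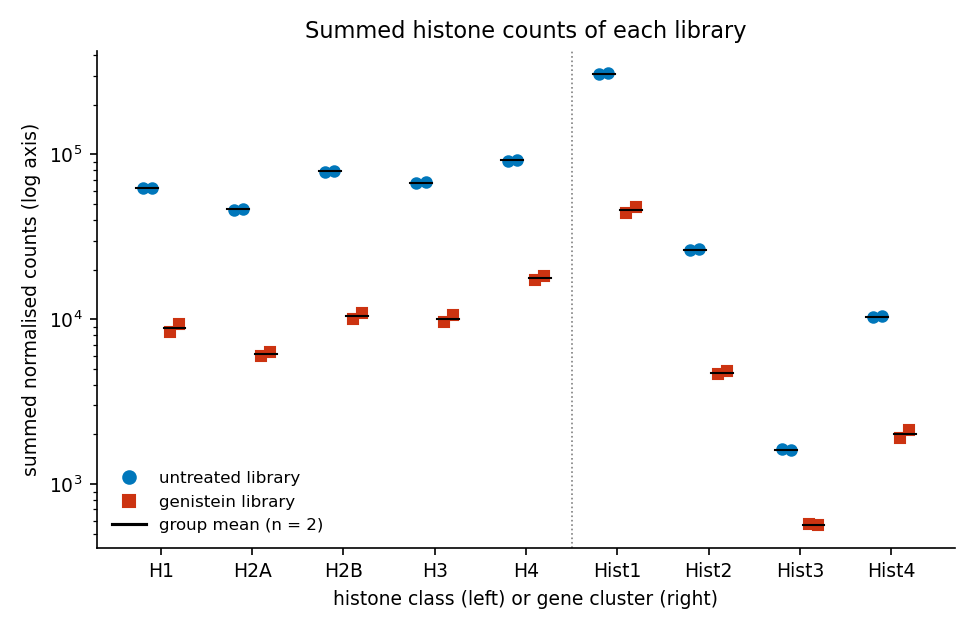
Summed normalised counts (log axis) of each histone class and each gene cluster, with 1 point per library and black lines at group means (n = 2 per group). Every genistein library lies below every untreated library, and the gap is narrowest for the 3 Hist3 genes, at 2.86-fold.

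The make-up of the remaining histone mRNA differed between the groups. H4 took 26.5% and 26.6% of histone counts in untreated cells and 33.7% and 32.9% with genistein. The shares of H1, H2A, H2B and H3 were each lower in both genistein libraries. H2A, for example, went from 13.3% and 13.4% to 11.7% and 11.4%. As a log2 ratio within a library, which needs no scaling between libraries, H2A over H4 was -0.99 in both untreated libraries and -1.53 in both genistein libraries. H3 over H4 was -0.45 in both untreated libraries and -0.85 and -0.79 with genistein. In contrast H2A over H2B was -0.77 and -0.76 in untreated cells and -0.74 and -0.79 with genistein, so the groups overlapped. Of the 10 ratios between 2 classes, 9 had groups that did not overlap. These 9 ratios all had p = 0.333 in an exact two-sided permutation test, the smallest value that 2 libraries per group allow. The ratio of H2A over H2B had an exact p of 1.

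**Figure D3:**
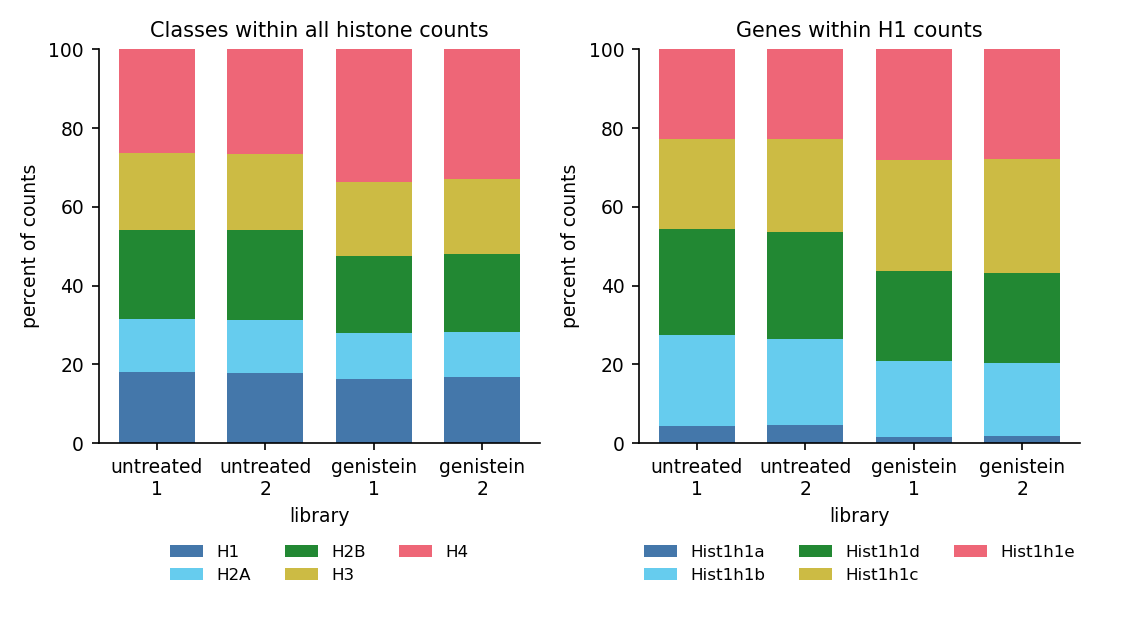
Stacked bars give the percent of counts in each library, with histone classes within all histone counts on the left and the genes within H1 counts on the right (Hist1h1t, at most 0.0109%, is not drawn). On the left the H4 part grows from 26.5% and 26.6% to 33.7% and 32.9%. On the right the Hist1h1a part shrinks from 4.43% and 4.68% to 1.61% and 1.68%.

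H1 genes encode linker histones, and all 5 that were tested fell. Hist1h1a (chr13:23763666-23764406) had 2772 and 2923 normalised counts in untreated cells and 135 and 157 with genistein. Its log2 fold change was -4.29 ± 0.07 (SE, n = 2 per group; adjusted p = 2.5e-17), a 19.5-fold lower level. Hist1h1b (chr13:21779883-21780625) went from 14389 and 13629 to 1602 and 1735, a change of -3.07 ± 0.05. Hist1h1a was thus the least abundant of the tested H1 genes and the one with the most negative change. Hist1h1d (chr13:23553262-23560686) had 16791 and 16980 against 1909 and 2136, a change of -3.06 ± 0.05. Hist1h1c (chr13:23738808-23740367) had 14312 and 14797 against 2376 and 2691, a change of -2.52 ± 0.05. Hist1h1e (chr13:23620629-23622558) had 14280 and 14172 against 2347 and 2607, also a change of -2.52 ± 0.05. Within the H1 counts, Hist1h1c and Hist1h1e therefore took a larger share with genistein, 28.4% and 28.9% for Hist1h1c against 22.9% and 23.7% before. An exon of Hist1h1e overlaps an annotated exon of Hist1h2be on the same strand, so reads there could be given to either gene.

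H2A genes encode a core histone that pairs with H2B, and all 18 tested were lower past all thresholds, with changes from -4.63 to -1.52. Hist1h2ap (chr13:21833026-21833507) had 569 and 715 normalised counts in untreated cells and 32.8 and 18.2 with genistein. That was a change of -4.63 ± 0.18, the most negative of any histone gene, and a 24.7-fold lower level. The value rests on 35 and 18 raw counts with genistein. Summed over the 9 genes that share its annotated protein, the log2 ratio was -3.21. Hist1h2ab (chr13:23751126-23751598) went from 5070 and 5107 to 385 and 422, a change of -3.66 ± 0.05. The highest level in this class was that of Hist1h2ak (chr13:21753435-21753827), at 6626 and 6811 against 700 and 756, a change of -3.21 ± 0.04. Hist2h2ac (chr3:96220361-96220880) followed with 5677 and 5559 against 929 and 986, a change of -2.55 ± 0.04. The least negative were 2 genes outside Hist1. Hist2h2ab (chr3:96219865-96220308) had 292 and 318 against 93.8 and 113, a change of -1.56 ± 0.12. Hist3h2a (chr11:58954685-58956830) had 1506 and 1477 against 525 and 518, a change of -1.52 ± 0.06. Every one of the 20 H2A genes overlaps an annotated gene on the other strand, and the strand setting of the counting is not given in the sources used here, so reads of these partners could not be told apart.

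H2B genes held both strongly lowered members and the weakest changes of the set. Of 16 tested, 13 were lower past all thresholds. Hist1h2bk (chr13:22035870-22036345) had 7734 and 7726 against 697 and 833 normalised counts, a change of -3.34 ± 0.05. Hist1h2bl (chr13:21715763-21716143) had 4701 and 4732 against 459 and 513, a change of -3.28 ± 0.05. The most abundant H2B genes by count were Hist2h2bb and Hist1h2bb. Hist2h2bb (chr3:96269752-96270132) went from 10972 and 10817 to 1994 and 2096, a change of -2.41 ± 0.04. It overlaps an annotated exon of Gm42743 on the same strand and of Gm20628 on the other, so reads there are uncertain. Hist1h2bb (chr13:23746734-23747241) went from 10160 and 10252 to 1086 and 1102, a change of -3.22 ± 0.03 (adjusted p = 7.6e-19). The 3 genes that missed a threshold were all rare. Hist3h2ba (chr11:58948920-58949533) had 64.9 and 74.1 against 21.6 and 22.3, a change of -1.66 ± 0.22 (adjusted p = 4.2e-06). The pseudogene Hist3h2bb-ps (chr11:58954048-58954512) had 58.9 and 55.1 against 23.4 and 21.3, a change of -1.34 ± 0.23 (adjusted p = 5.6e-05). Both missed the count threshold alone. Hist2h2be (chr3:96221119-96223738) had 28.0 and 39.2 against 25.3 and 22.3, a change of -0.49 ± 0.27 (adjusted p = 0.12), and was the 1 tested gene that did not pass.

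H3 genes were the most even class, with all 12 lower past all thresholds and changes from -3.11 to -2.39. Hist1h3b (chr13:23752267-23752886) had 6587 and 6457 against 708 and 810 normalised counts, a change of -3.11 ± 0.05. Hist1h3g (chr13:23535422-23535951) had 5900 and 6009 against 633 and 762, a change of -3.10 ± 0.06. The highest counts belonged to Hist1h3f (chr13:23544052-23545312), which went from 12783 and 13405 to 1951 and 2043, a change of -2.71 ± 0.04. Hist1h3e (chr13:23561534-23562369) went from 8647 and 8835 to 1336 and 1438, a change of -2.66 ± 0.04. At the other end were Hist1h3i and a gene of the Hist2 cluster. Hist1h3i (chr13:21782960-21783370) had 6382 and 6522 against 1107 and 1163, a change of -2.51 ± 0.04. Hist2h3c2 (chr3:96238108-96239127) had 757 and 949 against 168 and 156, a change of -2.39 ± 0.11.

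H4 genes, all 13 of them lower past all thresholds, had the least negative class median, at -2.53 beside -3.06 for H1, -2.89 for H2A, -2.79 for H2B and -2.68 for H3. Hist1h4j (chr13:21735064-21735837) had 4277 and 4399 against 518 and 568 normalised counts, a change of -3.0 ± 0.05. Hist1h4n (chr13:21831767-21832196) had 9129 and 9276 against 1256 and 1389, a change of -2.80 ± 0.04. The gene with the most H4 counts was Hist1h4d (chr13:23581598-23582735), with 15974 and 16148 against 3465 and 3558 and a change of -2.19 ± 0.05. It was followed by Hist4h4 (chr6:136801553-136804415), the only gene of the Hist4 cluster, with 10282 and 10395 against 1908 and 2128 and a change of -2.36 ± 0.04. Hist1h4c (chr13:23697635-23698454) went from 7662 and 7689 to 1837 and 1948, a change of -2.02 ± 0.04. Hist1h4a (chr13:23760692-23761230) went from 5914 and 5904 to 1509 and 1507, a change of -1.97 ± 0.04. All 13 H4 genes have the same annotated protein, so the level of 1 protein's mRNA was spread over genes whose remaining level with genistein ran from 12.5% (Hist1h4j) to 25.5% (Hist1h4a).

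Other classes also hold identical copies. Of the H2A genes, 9 of the Hist1 cluster share an annotated protein, and their summed counts were 23391 and 23779 against 2453 and 2661, a log2 ratio of -3.21. Among H3 genes a set of 4 (Hist1h3a, g, h and i) gave a log2 ratio of -2.76 and a set of 7 gave -2.73. The H2B sets of 4, 3 and 2 copies gave -3.07, -2.88 and -2.85. A sum does not depend on how reads were split among the copies within it, but reads can still be shared with a like copy outside it, such as Hist2h3c1 beside Hist2h3c2 of the set of 7. Hist2h2aa1 and Hist2h2aa2, which share a protein, varied in opposite ways within a group. Hist2h2aa1 (chr3:96245497-96246082) had 572 and 385 normalised counts in untreated cells and 73.1 and 129 with genistein. Its copy Hist2h2aa2 (chr3:96239749-96240276) had 1689 and 2136, then 316 and 225. Where one copy was high in a group the other was low, and the sum was steadier, at 2262 and 2522 against 389 and 353, a log2 ratio of -2.69.

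The 14 genes outside the Hist1 cluster all passed the filter. All 50 tested Hist1 genes were lower past all thresholds, as were 9 of 10 in Hist2, 1 of 3 in Hist3 and the 1 in Hist4. The cluster sums were 6.72-fold lower for Hist1, 5.59-fold for Hist2, 2.86-fold for Hist3 and 5.12-fold for Hist4. Hist3 sums were 1630 and 1606 against 570 and 562, and Hist3h2a held most of them. Relative to Hist1 within a library, Hist2, Hist3 and Hist4 counts were each higher in both genistein libraries, by 0.27, 1.23 and 0.39 on the log2 scale. These ratios again had the smallest exact permutation p the design allows, 0.333. An exon of Hist3h2a overlaps the gene Trim17 on the same strand. Exons of Hist2h2aa1 and Hist2h3c1 overlap Gm20634 on the same strand, and an exon of Hist2h3b overlaps Gm20628 on the other strand. Changes of single Hist2 genes ran from -2.82 to -0.49, beside a log2 ratio of -2.48 for the sum. Hist2h2be at -0.49 and Hist2h2ab at -1.56 lay furthest from the sum, and the genes given next lay nearer. Hist2h3b (chr3:96268654-96269141) had 3118 and 3059 against 491 and 538, a change of -2.59 ± 0.05. Hist2h4 (chr3:96261682-96263311) had 2556 and 2508 against 473 and 429, a change of -2.49 ± 0.05. Hist2h3c1 (chr3:96246685-96248509) had 784 and 730 against 88.1 and 128, a change of -2.82 ± 0.11.

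H2A and H2B genes often lie head to head and share the DNA between their start sites. There were 13 such pairs, with 172 to 305 bases between the annotated starts, and in 12 both genes were tested. The H2A gene had the more negative change in 11 of the 12, and the median difference (H2A minus H2B) was -0.21 on the log2 scale. The pairs share libraries, so this count is a description only. Every H2A gene of these pairs also overlaps a gene on the other strand, as given above. Most differences were small, such as Hist1h2ah at -3.52 beside Hist1h2bk at -3.34. The exception in sign was Hist1h2ai, at -2.67 beside -3.28 for Hist1h2bl. The widest differences were those of Hist2h2ac with Hist2h2be, at -2.55 and -0.49, and of Hist1h2ap with Hist1h2br, at -4.63 and -2.68. Both rest on low counts, 22 to 37 raw counts for Hist2h2be and 35 and 18 with genistein for Hist1h2ap. The H2B partner of Hist3h2a is the pseudogene Hist3h2bb-ps. Summed over all genes of the classes, the ratio of H2A over H2B had overlapping groups. Across the 12 pairs Spearman's rho between the partners' changes was 0.45, given as a description because the pairs share libraries.

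**Figure D4:**
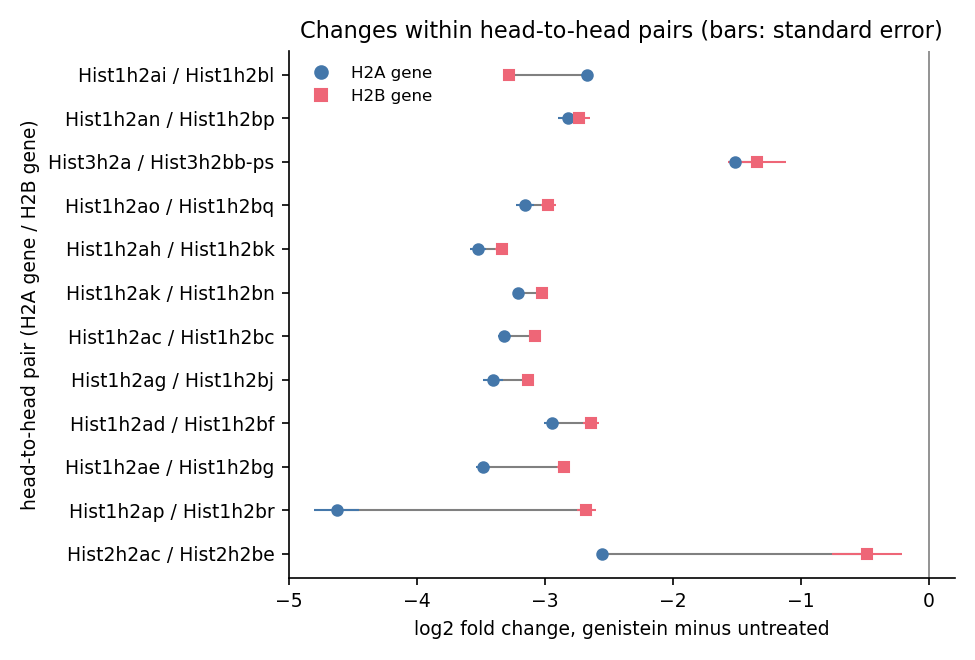
Log2 fold changes (genistein minus untreated) of the H2A gene (circle) and the H2B gene (square) of each of the 12 tested head-to-head pairs, with standard errors, ordered by their difference. The H2A circle lies to the left of the H2B square in 11 pairs, and the lines are longest for Hist2h2ac / Hist2h2be and Hist1h2ap / Hist1h2br.

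Promoter windows from 250 bases before to 50 after the start were found in RefSeq (GRCm38.p6) for 60 members. Letter matches on both strands were counted there and in 27025 genes of the same table. CCAAT was in 85% of the histone windows and 41.1% of all, TATAAA in 58.3% and 15.7%, ATTTGCAT in 21.7% and 1.97%, and AAACACA in 13.3% and 8.22%. All windows of H1, H2A, H2B and H3 genes held CCAAT, but only 3 of 12 of H4 genes did. Those 3, Hist1h4a, Hist1h4c and Hist1h4d, had changes from -2.19 to -1.97, and the other 9 from -3.0 to -2.10. Over all classes the order was the other way, with a median change of -2.82 in the 48 tested genes with CCAAT and -2.62 in the 9 without, which are all H4 genes. ATTTGCAT, the octamer that POU2F1 binds, was found in H2A and H2B windows alone, 7 of 18 and 6 of 14. The median change of the H2A and H2B genes was -3.22 in the 11 tested genes with it and -2.82 in the 19 without. AAACACA, known as the H1 box, was in 5 of 6 H1 windows and not in that of Hist1h1a. Over all classes the median change was -3.06 in the 5 tested genes with it and -2.76 in the 52 without. Those 5 were Hist1h1b, Hist1h1c, Hist1h1d, Hist1h1e and the H2A gene Hist1h2ab. Within H1 the order was the other way, from -3.07 to -2.52 in the 4 tested genes with the box and -4.29 in Hist1h1a. The stretches of 4 tested H1 genes are printed on the gene's strand, with the box in capitals, to show the element that most H1 windows share.
Hist1h1b (chr13:21780728-21780750, minus strand): ggactaacAAACACAatttggga
Hist1h1c (chr13:23738687-23738709, plus strand): agtgtaacAAACACAagttgggc
Hist1h1d (chr13:23554902-23554924, plus strand): ggggcaacAAACACAgccacaag
Hist1h1e (chr13:23622659-23622681, minus strand): ggtgtaacAAACACAactccgca
The box began 112 to 122 bases before the RefSeq start in these 4 genes. For Hist1h1d the GENCODE gene (chr13:23553262-23560686) begins further upstream, so the box lies inside that annotated gene. A single ATTTGCAT serves the windows of both genes of a head-to-head pair such as Hist1h2ah and Hist1h2bk, and it is shown on the strand of Hist1h2bk.
Hist1h2bk (chr13:22035783-22035806, plus strand): ttcactttATTTGCATacgaagtt
Such matches are descriptions of the letters in a window and say nothing of binding.

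Members with and without a stem-loop match were also set side by side. Among coding members annotated at least 60 bases past the stop codon, the median log2 fold change was -2.72 for the 39 tested genes with the motif and -2.83 for the 6 without, from -3.10 to -0.49. By form, the 24 tested genes with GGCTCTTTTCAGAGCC had a median of -2.84 and the 7 with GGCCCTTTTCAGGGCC, all of them H4 genes, had -2.36. Form and class cannot be told apart here. Across the 64 genes, Spearman's rho between the change and the untreated level per kilobase of exon was -0.19. The untreated level enters both values, which by itself favours a negative rho, so these rhos are descriptions only. Within classes it was -0.24 for H2A, -0.66 for H2B, -0.17 for H3 and -0.10 for H4, over 18, 16, 12 and 13 genes. In H2B the 3 rarest genes also had the smallest changes.

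Factors that make and process histone mRNA changed far less than the histone genes. Of 20 tested genes of this list, 17 were lower and 2 higher by adjusted p, beside 36.0% and 36.2% of all entries tested. None passed all thresholds, beside 3.92% lower over all entries, and the median change was -0.60. Slbp, which encodes the stem-loop binding protein, had 3371 and 3362 normalised counts against 2821 and 3029, a change of -0.20 ± 0.04 (adjusted p = 0.0002). Npat, the coactivator of histone genes at the histone locus body, had 1987 and 1978 against 1805 and 1825, a change of -0.13 ± 0.04 (adjusted p = 0.0089). This small change did not pass when library totals were used for scaling (adjusted p = 0.25). Casp8ap2, another histone locus body protein, fell by 0.53. Hinfp, an activator of H4 genes, was at -0.06 (adjusted p = 0.59). Lsm11 of the U7 particle, which cleaves the mRNA end, fell by 0.64, whereas Lsm10 of the same particle rose by 0.26 and Zfp473, a zinc finger protein of the same cleavage step, rose by 0.62. With DESeq2 neither of these 2 rises passed. The largest fall on the list was that of Mif4gd, an SLBP-interacting translation factor, from 337 and 322 to 169 and 178. The U7 RNA gene Rnu7 had 6 to 10 raw counts and was not tested.

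Of 16 chaperones and other factors that carry histones to DNA, 15 were lower and 1 higher by adjusted p, beside 36.0% and 36.2% of all entries, with a median change of -0.68. Ssrp1, a subunit of FACT, was the only one past all thresholds, at -1.11 ± 0.04. Nasp, a chaperone of H1 and of H3 with H4, changed by -0.68 and the H3 and H4 chaperone Asf1b by -0.76. The CAF-1 subunits Chaf1a and Chaf1b changed by -0.40 and -0.85. Ubn1, of the HIRA complex, rose by 0.61.

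Of 29 S phase genes, 28 were lower and 1 higher by adjusted p, beside 36.0% and 36.2% of all entries, with a median change of -0.55. Past all thresholds 2 of 29 were lower, not far from the 3.92% of all entries. The cyclins Ccne1 and Ccne2, which act at entry to S phase, were those 2, at -1.61 ± 0.06 and -1.41 ± 0.07. Pcna, the sliding clamp, changed by -0.70, the helicase subunit Mcm2 by -0.57 and the ribonucleotide reductase subunit Rrm2 by -0.52, while E2f1, a transcription factor of S phase genes, rose by 0.65. The log2 ratio of summed histone counts to summed S phase counts within a library was 1.63 and 1.68 in untreated cells and -0.60 and -0.49 with genistein. The mean ratio differed by -2.20 on the log2 scale, with groups that did not overlap (exact permutation p = 0.333, the smallest possible).

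Replication-independent histones, which are made throughout the cell cycle from polyadenylated mRNAs, changed in both directions. Of 11 tested, 6 were lower and 3 higher by adjusted p, beside 36.0% lower and 36.2% higher over all entries, with a median of -0.55. Counts of this size are close to the shares over all entries and are no result about these genes as a list. H2afx, which encodes the H2A variant phosphorylated at DNA breaks and whose mRNA can also end in a stem-loop, was the only one past all thresholds, with 8057 and 8166 against 3093 and 3625, a change of -1.27 ± 0.05. H1f0, the linker histone of resting cells, changed by -0.94 and H2afz by -0.96. H2afv, whose protein is a near copy of that of H2afz, had 747 and 730 against 1337 and 1325 and rose by 0.85. The genes of the variant H3.3 differed in sign, since H3f3b fell by 0.55 and H3f3a rose by 0.17 (adjusted p = 0.003).

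**Figure D5:**
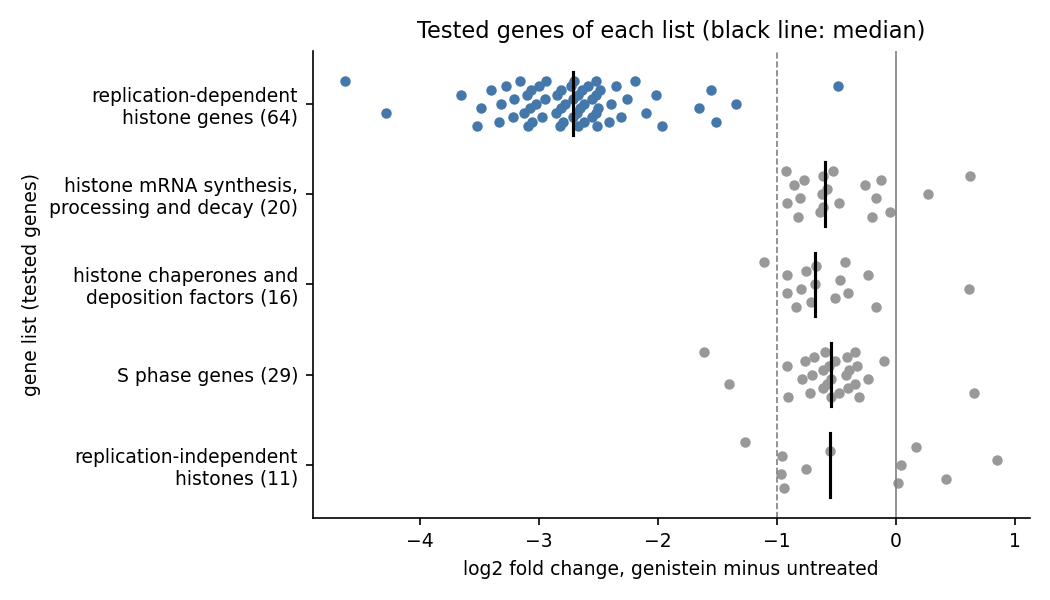
Log2 fold changes (genistein minus untreated) of the tested genes of 5 lists, 1 point per gene, with the number tested in brackets, medians as black lines, 0 as a solid line and the fold threshold as a dashed line. The histone genes centre on -2.71, and the other 4 lists have medians from -0.68 to -0.55.

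Library totals ran from 28591958 to 31464284 counts. Of the 11 fibroblast markers 9 were tested, the list summed to 432974 and 444702 normalised counts in untreated cells and 421863 and 412647 with genistein, and Thy1 was at 0 in all libraries. Lum, with 1 to 10 raw counts, was not tested. Single fibroblast markers moved in both directions, 7 lower and 2 higher by adjusted p, beside 36.0% lower and 36.2% higher over all entries. Their changes ran from Pdgfrb at -0.73 and Col1a2 at -0.50 to Fn1 at 0.20 and Dcn at 1.08, the last past all thresholds. Markers of other cell types were low. The 5 epithelial markers summed to 672 to 718 in untreated cells and 109 to 118 with genistein, nearly all Krt14, with Epcam and Krt5 at 0. The 4 endothelial markers went from 25.0 and 30.7 to 85.3 and 97.2, and the 5 leukocyte markers from 66.7 to 84.9 up to 211 to 214, with Adgre1 and Cd3e at 0. The 5 germ cell markers summed to 81.9 to 101 and to 45.9 to 50.6, with Dazl, Tnp1 and Prm1 at 0, and the 4 muscle markers stayed under 3, with Myod1 and Ckm at 0. The part of these shifts in the histone values was not tested.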

How the data were processed

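Total RNA of 2 untreated and 2 genistein-treated MEF samples (50 µM, 24 h) was sequenced by the authors as stranded, ribosome-depleted libraries with paired ends of 150 bases. Trim Galore (trimming), STAR (alignment to mm10, up to 100 alignments kept per read) and TEtranscripts (counting of GENCODE genes and of repeats) were used by the authors. The strand option and the handling of reads shared by gene copies are not given in the sources used here. The deposited values are raw counts, not normalised. The single entry that named no gene or repeat (0.00208% to 0.00314% of counts) was left out.

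Of the gene identifiers, 47224 of 47937 were matched to a symbol. Coordinates, transcripts and proteins come from GENCODE M21 on GRCm38, the assembly of mm10, counted from 1. The authors counted with an earlier GENCODE release, so the overlaps and exon lengths given here may differ from those used in counting. Counts were fitted in one table of genes and repeats with edgeR 4.0.16 (R 4.3.3), with filterByExpr by group, TMM scaling over kept entries, and the quasi-likelihood test. P-values were adjusted by Benjamini-Hochberg over the 17358 entries kept. The thresholds are those of the study's methods, and no test was run over the members as a set. The test was also run on simulated counts with the same spread setting for all entries and few changed entries. Far more entries passed in these data, so that run gives no error rate for them. DESeq2 1.42.0, other scalings, filters, a replicate block and each library left out were alternatives. Samples with the same replicate number did not deviate together (correlation -0.03 over entries), and the libraries of a group were not copies of each other (chi-square of 5.92 and 13.3 per degree of freedom).

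The members and lists were chosen with earlier results of these data known. Genes were named by rule: every tested H1 gene, every tested gene outside Hist1, and in each other class the 2 with the highest mean count, the 2 most and the 2 least negative changes. Genes removed by the filter, fixed names from each list and the largest change on each list were added. Hist1h2ah, Hist1h2ai, Hist1h2br, Zfp473, Rnu7, Ubn1, E2f1, H2afv and the single markers with values were named after their values were seen.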

Additional observations from a re-analysis of the deposited data

How the results depend on the processing

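The counts of histone genes, 61 lower past all thresholds and 63 lower by adjusted p, were the same under RLE scaling, scaling from genes alone, library totals, no filter, DESeq2, the replicate block (61 and 63, median -2.71) and each library left out. A mean count over 10 gave 63 and over 1000 gave 54, and a test against the fold threshold itself gave 61. The median was -2.73 with identical copies summed. Library totals gave log2 ratios of sums of -2.63 for all members, -2.84 for H2A, -2.84 for H2B, -2.67 for H3, -2.30 for H4, -2.68 for Hist1, -2.41 for Hist2 and -1.45 for Hist3. Scaling from genes alone gave -2.87 for H2A, -2.33 for H4, -2.44 for Hist2 and -1.47 for Hist3. With a library left out, the log2 ratios of sums ran from -2.76 to -2.64 for all members, -2.90 to -2.74 for H1, -2.95 to -2.87 for H2A, -2.98 to -2.85 for H2B, -2.81 to -2.67 for H3, -2.41 to -2.33 for H4, -2.81 to -2.68 for Hist1, -2.51 to -2.45 for Hist2 and -2.44 to -2.28 for Hist4. The 2 higher genes of histone mRNA synthesis, processing and decay became 0 with DESeq2 and 0 to 2 with a library left out (0 without genistein replicate 1, and 1 without either untreated library). Hinfp changed sign, to 0.013 with library totals, and ran from -0.20 to 0.10 with a library left out (0.10 without untreated replicate 1), with no adjusted p under 0.05. Of the other values of single named genes, 542 kept their direction and their side of the threshold and 6 lost the call, 3 of Npat (adjusted p = 0.25 with library totals, 0.065 with scaling from genes alone and 0.061 without genistein replicate 1) and 3 of Lsm10 (0.24 with DESeq2, 0.069 without untreated replicate 1 and 0.077 without genistein replicate 1). The cause of these losses was not tested. With 2 libraries a group, the spread rests on a single difference within each group. Copies with like sequence, and overlapping genes on either strand, are uncertain one by one.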
